A study of Beta vulgaris with 9 samples.

Results

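Leaves of sugar beet held in an alkaline solution for 7 days, the long-term group, were compared with leaves taken at day 0, the control group, across protein-coding genes and non-coding transcripts. Plants of both groups were seedlings of the cultivar KWS0143, raised in Hoagland nutrient solution to an age of 5 weeks. The long-term plants then stood in the same kind of solution with 75 mM of mixed Na2CO3 and NaHCO3, which raises pH and sodium together, while the control leaves were harvested before any treatment. The 3 control and 3 long-term libraries are 6 of the 9 libraries of the series. The other 3, from day 3, are not compared here. They entered the estimate of the spread, the filter on group means, the scaling by median ratios and the principal components. Each library was made from fresh leaves as a separate biological replicate. A control of day 7 is not among these libraries, so 7 days of treatment and 7 further days of growth cannot be told apart. The solution acts at the root and the RNA is of the leaf, in which fewer cells of a type and less RNA per cell cannot be told apart either.

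High pH makes iron, zinc and phosphate poorly soluble, and carbonate adds sodium and a load of bicarbonate. Much of the protein of a leaf cell serves the chloroplast, where pigment and protein complexes in the thylakoid membrane harvest light, ferredoxin passes the electrons on to carbon, nitrogen and sulfur assimilation, and the Calvin cycle fixes CO2. Iron is needed in haem, in iron-sulfur clusters and in several steps of chlorophyll synthesis, and phosphate in membrane lipids, nucleotides and sugar phosphates, so both nutrients bear on the same organelle. Genes were therefore read by the pathway that their product name places them in.

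Values are FPKM, sequenced fragments scaled to transcript length and library size, deposited by the authors for each transcript and here added up per gene. Of 24351 gene identifiers, 14491 reached a group mean over 0.5 and were tested with limma on log2(FPKM + 1), at an adjusted p under 0.05. On this scale 4505 genes (31.1%) rose and 1047 (7.23%) fell. Counts of the lists below are to be read beside these shares. The median of all genes was 0.26 higher in the long-term libraries, so each change below is given as a relative log2 change, the log2 change minus 0.26, while its p-value tests the change before this subtraction. With the libraries set to equal level by median ratios, which moves that median to 0.02, 1444 genes (9.96%) rose and 1873 (12.9%) fell, and 1444 (9.96%) rose and 1044 (7.2%) fell under both scalings. The excess of risen over fallen genes thus belonged to the deposited scale, and most fallen genes to both. Genes are said here to have risen or fallen when they passed on the deposited scale, and those given with values passed under both scalings, with no overlap of the 3 control and 3 long-term libraries, unless the text says otherwise. In 5508 genes (38%) every long-term library lay above every control library, and in 1427 (9.85%) every one lay below. Leaving out 1 library gave 2351 risen genes without control replicate 2, 1758 without control replicate 3 and 1813 without long-term replicate 2, and 653, 564 and 596 fallen ones.

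Control replicate 1 stood apart from the other control libraries. Along principal component 1 of all 9 libraries, with 65.6% of the variance, it lay at 1.07, against -55.8 and -71.9 for control replicates 2 and 3 and 22.8 to 63.5 for the long-term libraries. It was the control library nearest to the long-term ones in 71.3% of the risen and 77.9% of the fallen genes. Long-term replicate 2 held the smallest share of transcripts of uncertain coding potential, 38.7% of its FPKM, against 47.5 and 49.0% in the other long-term and 52.5 to 53.9% in the control libraries. The defining markers of mesophyll, 17 genes of which 14 are of the antenna and the other 3 plastocyanin, the rubisco small chain and phosphoribulokinase, summed to between 36234 and 48135 FPKM in control and between 17296 and 27160 in long-term leaves, and 11 of them fell. Markers of epidermis (8 genes) went from between 38.98 and 50.05 to between 60.4 and 76.2 FPKM, but without 3-ketoacyl-CoA synthase 11 (LOC104902115) the other 7 stood between 15.9 and 19.6 in control and between 13.5 and 16.2 in long-term leaves. Those of dividing cells (5 genes) went from between 10.6 and 12.4 to between 11.0 and 15.4. The 2 guard cell genes stayed at or under 1.68 FPKM and the single xylem gene at or under 0.0548, and no product name matched a phloem or a root marker. The part of cell composition in the results was not tested.

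**Figure D1:**
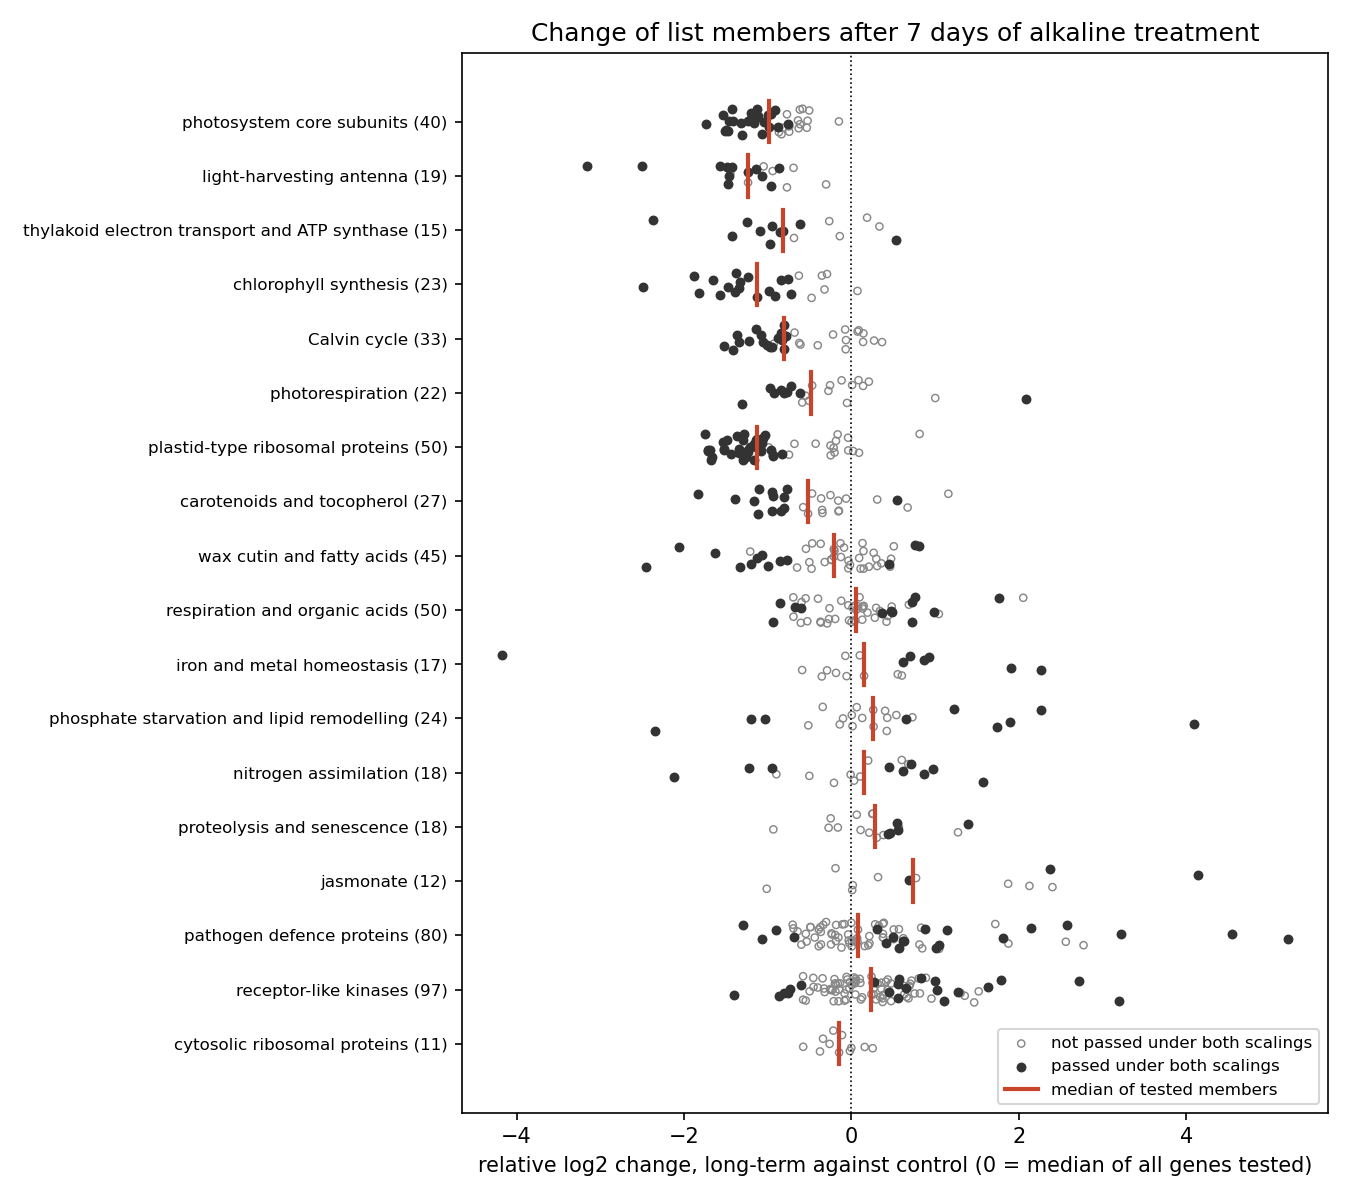
Relative log2 change of every tested member (points) of 18 gene lists, with the number tested in brackets. Filled points passed under both scalings, red bars are medians of the list, and the dotted line is the median of all genes. The photosynthetic and plastid ribosomal lists lie left of the line, with medians from -1.23 (antenna) to -0.49 (photorespiration), while the metal, phosphate, jasmonate and defence lists hold single members far to the right.

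The photosystem genes were lower after 7 days. Of 40 tested subunits of photosystems I and II and of the oxygen-evolving complex, 25 fell and the other 15 did not pass, with a median relative log2 change of -0.99. After median-ratio scaling 34 fell. The 25 that fell as deposited had a median control mean of 148 FPKM, and the 15 that did not pass had one of 1884. Their median relative log2 changes were -1.20 and -0.63. Subunit N of the photosystem I reaction centre (LOC104895406), on the lumen side of the membrane, was at 1314, 1372 and 1680.4 FPKM in control replicates 1 to 3 and at 611, 482 and 476 in long-term replicates 1 to 3 (relative log2 change -1.74, SE 0.16, adjusted p = 0.00236). A less abundant member that fell was PsbP domain-containing protein 7 (LOC104890818), at 34.1, 41.5 and 39.6 and then 16.2, 12.8 and 16.9 FPKM (relative log2 change -1.54, SE 0.13, adjusted p = 0.00186). PsbP domain-containing protein 5 (LOC104887742) was at 10.7, 13.6 and 16.7 and then 5.39, 4.54 and 5.31 FPKM (relative log2 change -1.51, SE 0.16, adjusted p = 0.00367). The members together took 8.11, 8.99 and 10.2% of the protein-coding FPKM of the control libraries and 6.84, 5.78 and 4.79% of the long-term ones. In every long-term library this share was below every control library.

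The light-harvesting antenna, whose proteins bind chlorophyll a and b, held the steepest falls of the thylakoid. Of 19 members 12 fell and 7 did not pass (median relative log2 change -1.23), with 7 without control replicate 3 fallen. LOC104883662, a chlorophyll a-b binding protein, was at 581, 782 and 1525 FPKM in control and 113, 157 and 93.6 in long-term leaves (relative log2 change -3.15, SE 0.56, adjusted p = 0.00873). LOC109133718, of the same name, was at 919, 1041 and 2302 and 289, 428 and 166 (relative log2 change -2.50, SE 0.48, adjusted p = 0.0112). In both genes control replicate 3 was the highest library and long-term replicate 3 among the lowest, so the spread within groups was wide and the order of the groups was still complete. Reads of antenna genes can be shared between near-identical copies, so the split between these members is uncertain. The antenna share of protein-coding FPKM went from 6.95, 7.26 and 9.61% to 5.26, 4.902 and 3.37%.

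Electron carriers changed unequally. Ferredoxin-1 (LOC104903711), the iron-sulfur protein that receives electrons from photosystem I, was at 2346, 2684 and 2616 FPKM in control and 532, 504 and 752 in long-term leaves (relative log2 change -2.38, SE 0.17, adjusted p = 0.001), with little spread in either group. A second gene named ferredoxin (LOC104902141) was higher, at 10.1, 9.99 and 9.27 and then 17.7, 19.97 and 15.5 FPKM (relative log2 change 0.53, SE 0.13, adjusted p = 0.00615). The change was thus opposite in the abundant and the minor gene. Plastocyanin (LOC104883872), the copper protein that feeds photosystem I, was at 1214, 1529 and 1681 and then 765, 654 and 544 FPKM (relative log2 change -1.43, SE 0.21, adjusted p = 0.0072). PGR5-like protein 1B (LOC104900099), a part of cyclic electron flow around photosystem I, was at 13.004, 10.6 and 13.1 and then 4.76, 4.47 and 8.28 (relative log2 change -1.25, SE 0.20, adjusted p = 0.0102). Of the 15 genes of electron transport and ATP synthase, which by name include a mitochondrial Rieske protein and glutamate synthase, 9 fell and 2 rose. The primers with which the study amplified ferredoxin-1 by PCR are shown because this gene carries the electron transport result.
LOC104903711 forward primer: agtgccctgatgatgtatatgtct
LOC104903711 reverse primer: agcacaagtaagaacccatcct

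Chlorophyll synthesis fell along nearly its whole length, with the deepest change at its first committed step. Glutamyl-tRNA reductase 1 (LOC104905095), which commits glutamate to tetrapyrroles and is the step at which the pathway is controlled, was at 125, 153 and 153 FPKM in control and 24.5, 27.8 and 38.9 in long-term leaves (relative log2 change -2.49, SE 0.17, adjusted p = 0.001). The groups were far apart, with no control library under 125 and no long-term one over 38.9. Glutamate-1-semialdehyde aminomutase (LOC104893849), the next enzyme, moved little by comparison, from 85.2, 103 and 110.4 to 71.96, 66.6 and 76.4 FPKM (relative log2 change -0.72, SE 0.13, adjusted p = 0.0265), and its call was lost without control replicate 2 (0.0807), control replicate 3 (0.0933) or long-term replicate 2 (0.0862). In the shared part of the pathway that also leads to haem, delta-aminolevulinic acid dehydratase (LOC104890959), porphobilinogen deaminase (LOC104887574), uroporphyrinogen decarboxylase 1 (LOC104891390) and the oxygen-dependent coproporphyrinogen-III oxidase (LOC104906437) fell, at relative log2 changes of -0.99, -1.33, -1.39 and -1.48 with adjusted p of 0.00652, 0.00714, 0.00724 and 0.00569. Uroporphyrinogen-III synthase (LOC104898979) did not pass, at 5.85, 5.49 and 5.86 and 6.47, 4.76 and 5.22 FPKM. The 2 protoporphyrinogen oxidase genes, the last step before the branch to haem, did not fall on the deposited scale. LOC104906038 was at 9.67, 11.6 and 11.8 and 8.49, 9.16 and 10.4 FPKM and did not pass, and LOC104906253 went from 8.36, 7.55 and 7.05 to 9.45, 9.38 and 10.9 and rose (relative log2 change 0.07, SE 0.11, adjusted p = 0.0381), a call that was lost after median-ratio scaling and without control replicate 2 (0.0955), control replicate 3 (0.124), long-term replicate 2 (0.0711) or long-term replicate 3 (0.0918).

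On the chlorophyll branch, the subunits of magnesium chelatase, which inserts Mg into protoporphyrin, fell. ChlH (LOC104889354) was at 373, 425 and 554 FPKM in control and 174, 185 and 148 in long-term leaves (relative log2 change -1.66, SE 0.17, adjusted p = 0.00367). ChlI (LOC104900584) was at 87.4, 106 and 136 and 43.2, 31.1 and 34.5 (relative log2 change -1.82, SE 0.18, adjusted p = 0.00318). ChlD (LOC104890053) moved less, from 22.7, 26.02 and 33.2 to 22.04, 18.5 and 13.5 (relative log2 change -0.84, SE 0.19, adjusted p = 0.0385), with long-term replicate 1 just below the lowest control library. Its call was lost without control replicate 2 (0.0826), control replicate 3 (0.128), long-term replicate 2 (0.0841) or long-term replicate 3 (0.0886). Magnesium protoporphyrin IX methyltransferase (LOC104908971) was at 64.7, 84.3 and 98.8 and 39.9, 27.3 and 30.7 (relative log2 change -1.57, SE 0.20, adjusted p = 0.00494). The monomethyl ester cyclase (LOC104889639), an iron enzyme, was at 536, 629 and 751 and 347, 280.001 and 251 (relative log2 change -1.38, SE 0.18, adjusted p = 0.00541). Light-dependent protochlorophyllide reductase (LOC104891616) was at 60.3, 66.1 and 120.3 and 31.9, 39.02 and 12.1 (relative log2 change -1.88, SE 0.43, adjusted p = 0.0211), a call that was lost without control replicate 3 (0.0772). Divinyl chlorophyllide a 8-vinyl-reductase (LOC104891135), geranylgeranyl diphosphate reductase (LOC104894042) and chlorophyll synthase (LOC104892512) fell as well, at relative log2 changes of -1.23, -1.34 and -0.91 with adjusted p of 0.00406, 0.00406 and 0.0116. Chlorophyllide a oxygenase (LOC104893235), which makes chlorophyll b, did not pass on the deposited scale, at 91.7, 98.2 and 109 and 92.4, 84.1 and 58.1 FPKM. In all, 17 of 23 members fell, 1 rose and 5 did not pass, where the count includes a tetrapyrrole-binding protein and a glutamyl-tRNA reductase-binding protein, which fell, and 2 protochlorophyllide-dependent translocon components, which did not pass. Control replicate 1 was the control library nearest to the long-term ones in each of the 17, and it stayed outside their range in each.

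**Figure D2:**
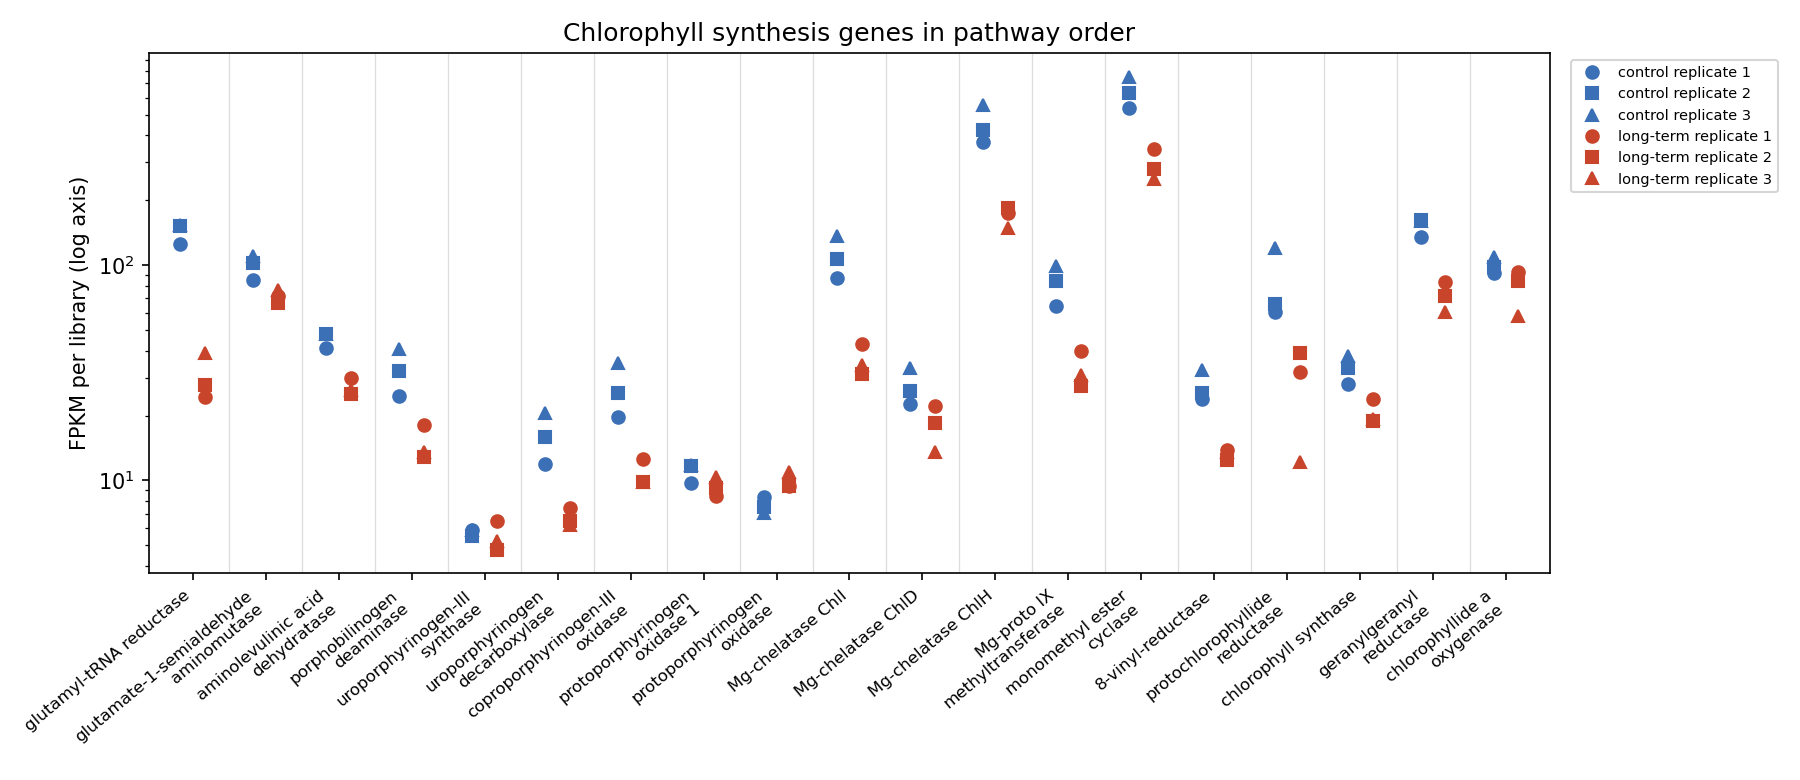
FPKM per library (log axis) of 19 chlorophyll synthesis genes in pathway order from left to right, blue for the 3 control and red for the 3 long-term libraries, with 1 symbol shape per replicate number. Glutamyl-tRNA reductase at the left shows the widest gap between the groups, at 125 to 153 against 24.5 to 38.9 FPKM, while uroporphyrinogen-III synthase and chlorophyllide a oxygenase overlap.

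Chlorophyll breakdown did not move as a block. Pheophytinase, which removes the phytol tail, is annotated at 2 genes that went opposite ways. LOC104907441 rose from 33.3, 30.6 and 21.5 to 86.5, 86.1 and 61.8 FPKM (relative log2 change 1.17, SE 0.21, adjusted p = 0.00462), and LOC104895050 fell from 42.6, 51.6 and 46.2 to 26.1, 21.3 and 26.4 (relative log2 change -1.16, SE 0.12, adjusted p = 0.0043). Pheophorbide a oxygenase (LOC104902984), which opens the ring, rose from 23.5, 17.2 and 14.9 to 40.4, 49.1 and 42.9 (relative log2 change 0.97, SE 0.16, adjusted p = 0.00407). STAY-GREEN 1 (LOC104892367), the Mg-dechelatase that starts breakdown in Arabidopsis, was at 19.1, 12.7 and 7.15 and 28.1, 43.4 and 32.3 (relative log2 change 1.16, SE 0.34, adjusted p = 0.0151), a call that was lost without long-term replicate 2 (0.0586). The chlorophyll b reductases fell, NYC1 (LOC104902204) from 10.8, 9.18 and 11.97 to 3.52, 5.42 and 5.603 (relative log2 change -1.27, SE 0.19, adjusted p = 0.008) and NOL (LOC104884604) from 14.6, 18.9 and 20.7 to 12.9, 12.3 and 11.7 (relative log2 change -0.77, SE 0.13, adjusted p = 0.0178), the second lost without control replicate 2 (0.0596), control replicate 3 (0.0635) or long-term replicate 2 (0.0556). Red chlorophyll catabolite reductase and the chlorophyllases did not pass. Over the list of 10, 3 rose and 4 fell (2 without control replicate 2, control replicate 3 or long-term replicate 2 fallen), and its share of protein-coding FPKM was between 0.0589 and 0.0667% in control and between 0.0608 and 0.0690% in long-term leaves, ranges that overlap. The falls came to 7 after median-ratio scaling.

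The largest fall of any gene with a product name was in CO2 handling. LOC104902037, a carbonic anhydrase, the enzyme that interconverts CO2 and bicarbonate, was at 1612, 3089 and 2947 FPKM in control and 139.9, 116 and 65.9 in long-term leaves (relative log2 change -4.83, SE 0.38, adjusted p = 0.0011), 23.8 times lower on the deposited scale. Control replicate 1 was the lowest control library, and each long-term library was still far below it. The other carbonic anhydrases moved far less or not at all. Alpha carbonic anhydrase 1 (LOC104898358) was at 87.3, 112 and 95.7 and 59.9, 53.96 and 56.98 FPKM (relative log2 change -1.03, SE 0.13, adjusted p = 0.0057). Carbonic anhydrase 2 (LOC104897387) was at 297, 357 and 344 and 235, 239.6 and 272 (relative log2 change -0.68, SE 0.11, adjusted p = 0.0208), a call that was lost without control replicate 2 (0.0765), control replicate 3 (0.0714) or long-term replicate 2 (0.0671). Beta carbonic anhydrase 5 (LOC104904741) and 3 gamma carbonic anhydrases, which belong to the mitochondrial complex I, did not pass, at relative log2 changes between -0.25 and -0.04. The list took 0.459, 0.823 and 0.792% of protein-coding FPKM in control leaves and 0.115, 0.115 and 0.112% in long-term leaves.

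Of 33 Calvin cycle genes 18 fell and 3 rose (median relative log2 change -0.81), with 11 without control replicate 3 or long-term replicate 2 fallen. The 3 rises were lost after median-ratio scaling, and the list includes chaperonins that fold rubisco. Ribulose-phosphate 3-epimerase (LOC104894019), which regenerates the CO2 acceptor, was at 488, 527 and 569.999 and 206, 198 and 260.2 FPKM (relative log2 change -1.52, SE 0.13, adjusted p = 0.00211). Fructose-bisphosphate aldolase 1 (LOC104895124) was at 232, 273 and 333 and 133, 117 and 120.4 (relative log2 change -1.42, SE 0.16, adjusted p = 0.0043). The small chain of rubisco, the CO2-fixing enzyme, was at 4569, 5210.4 and 6151 and 3058, 2376 and 2001 for its gene LOC104886961 (relative log2 change -1.37, SE 0.19, adjusted p = 0.00669). These falls were of similar depth, and the cycle as a whole took 5.17, 6.12 and 6.78% of protein-coding FPKM in control and 3.81, 3.18 and 3.25% in long-term leaves. Photorespiration, which salvages the product of oxygen fixation, moved less, with 8 of 22 genes fallen and 3 risen, against 2 without control replicate 2 or long-term replicate 2, 3 without control replicate 3 and 5 without long-term replicate 3 fallen and 1 without control replicate 2, control replicate 3 or long-term replicate 2 risen. Scaling by median ratios gave 10 falls and 1 rise. Aminomethyltransferase (LOC104894893), the T protein of glycine decarboxylase, was at 538, 659 and 727 and 329, 288 and 307 (relative log2 change -1.31, SE 0.15, adjusted p = 0.00465). Phosphoglycolate phosphatase 1B (LOC104890185), the first enzyme of the pathway, was at 249.5, 268 and 326 and 151, 186 and 173 (relative log2 change -0.98, SE 0.15, adjusted p = 0.0115). The highest member by change was D-3-phosphoglycerate dehydrogenase 1 (LOC104901403), which by function opens the other, phosphorylated route to serine. It rose from 68.2, 51.03 and 29.4 to 239, 299.6 and 196 FPKM (relative log2 change 2.08, SE 0.28, adjusted p = 0.00335), with no long-term library under 196 and no control over 68.2.

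Genes for ribosomal proteins of the bacterial type fell in their majority. Of 50 ribosomal proteins of the bacterial type (30S and 50S), which serve plastids and mitochondria, 35 fell and 15 did not pass, with a median relative log2 change of -1.13. The 30S ribosomal protein 2 (LOC104889787) was at 54.02, 73.2 and 83.6 FPKM in control and 28.1, 18.9 and 25.7 in long-term leaves (relative log2 change -1.75, SE 0.21, adjusted p = 0.0043). The 50S ribosomal protein L10 (LOC104906080) was at 67.5, 81.7 and 110.1 and 37.04, 22.5 and 32.8 (relative log2 change -1.72, SE 0.24, adjusted p = 0.00563). The 50S ribosomal protein 5 alpha (LOC104889636) was at 60.6, 83.9 and 112 and 36.7, 23.5 and 30.1 (relative log2 change -1.72, SE 0.24, adjusted p = 0.00599). Levels split the list, since 34 of the 35 that fell had a control mean over 20 FPKM and 14 of the 15 that did not pass had 20 FPKM or less. By contrast, 2 of 11 cytosolic (40S and 60S) ribosomal protein genes rose on the deposited scale and 2 fell after median-ratio scaling, so their direction depended on the scaling, at a median relative log2 change of -0.15. The difference between the ribosome types was not tested. Of 43 genes of plastid transcription, translation and import 11 fell and 4 rose, with 17 without control replicate 1 and 7 without control replicate 3 fallen. After median-ratio scaling 23 of this list fell. Plastid transcriptionally active 16 (LOC104900056), a part of the nucleoid, was at 127, 145 and 156 and 67.1, 62.2 and 62.3 (relative log2 change -1.40, SE 0.13, adjusted p = 0.00236). The stem-loop RNA-binding protein of the chloroplast (LOC104890676), which protects plastid RNA, was at 894, 1156 and 1275 and 568, 469 and 535 (relative log2 change -1.33, SE 0.18, adjusted p = 0.00596). Elongation factor G-2 (LOC104892065) was at 147, 181 and 186 and 83.2, 60.5 and 98.3 (relative log2 change -1.36, SE 0.18, adjusted p = 0.0057). The 4 rises of this list were lost after median-ratio scaling.

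Genes for pigments and lipids of the plastid fell in part. Of 27 carotenoid and tocopherol genes 12 fell and 2 rose, with 7 without control replicate 2, control replicate 3 or long-term replicate 2 fallen. Beta-carotene isomerase D27 (LOC104892629), the first enzyme of strigolactone synthesis, was at 51.4, 62.005 and 59.5 FPKM in control and 18.4, 15.4 and 23.1 in long-term leaves (relative log2 change -1.83, SE 0.16, adjusted p = 0.00194). Lycopene beta cyclase (LOC104889451), which makes beta-carotene, was at 34.4, 41.1 and 44.9 and 18.8, 16.1 and 18.6 (relative log2 change -1.39, SE 0.12, adjusted p = 0.00211). Phytoene dehydrogenase (LOC104901576) was at 9.33, 8.96 and 13.02 and 6.22, 3.84 and 5.31 (relative log2 change -1.16, SE 0.19, adjusted p = 0.0112). Among wax, cutin and fatty acid genes, 10 fell and 8 rose of 45, with 5 without control replicate 2 and 4 without control replicate 3 or long-term replicate 2 risen, and the deepest falls were plastid enzymes. Scaled by median ratios, 11 fell and 3 rose. As deposited 22.2% of this list fell and 17.8% rose, and 44.4 and 7.41% of the carotenoid and tocopherol list, against 7.23 and 31.1% of all genes. Acyl carrier protein 1 (LOC104893901), on which fatty acids are built, was at 116, 155 and 252 and 46.8, 28.5 and 32.8 (relative log2 change -2.46, SE 0.32, adjusted p = 0.00458). Omega-3 fatty acid desaturase (LOC104903256), which makes trienoic fatty acids, was at 94.1, 109.6 and 134 and 25.2, 26.3 and 45.98 (relative log2 change -2.06, SE 0.23, adjusted p = 0.00406). Fatty acid desaturase 4 (LOC104891650), which acts on phosphatidylglycerol of the thylakoid in Arabidopsis, was at 102, 121 and 106 and 38.98, 29.6 and 62.8 (relative log2 change -1.63, SE 0.24, adjusted p = 0.0064). The opposite was seen at 3-ketoacyl-CoA synthase 11 (LOC104902115), an elongase of very long fatty acids, from 34.2, 23.6 and 19.3 to 44.1, 49.4 and 62.7 (relative log2 change 0.75, SE 0.22, adjusted p = 0.0114). This gene is also the highest of the epidermis markers, whose sum without it is given above.

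A ferritin gene fell, and several genes of metal transport rose. Ferritin-3 (LOC104905965), a plastid protein that stores iron, was at 64.2, 44.1 and 85.5 FPKM in control and 1.49, 2.71 and 6.99 in long-term leaves (relative log2 change -4.18, SE 0.41, adjusted p = 0.00211), 17.3 times lower on the deposited scale. A second ferritin gene (LOC104892547) did not pass, at 34.3, 16.97 and 17.3 and 16.5, 28.7 and 19.99. Of the 17 metal genes ferritin-3 was the single fall, against 7 rises. These rises were 41.2% of the list, where over all genes 31.1% rose, and 6 genes rose after median-ratio scaling. The probable cadmium/zinc-transporting ATPase HMA1 (LOC104894889), which sits in the chloroplast envelope in Arabidopsis, was at 17.9, 12.3 and 10.02 and 88.01, 90.2 and 64.4 (relative log2 change 2.27, SE 0.24, adjusted p = 0.00181). Zinc transporter 4 (LOC104884321), of a family that brings zinc and iron into the cytosol, was at 41.4, 22.03 and 13.8 and 128, 88.6 and 113 (relative log2 change 1.91, SE 0.33, adjusted p = 0.00499). PAA1 (LOC104904017), which carries copper into the chloroplast, was at 9.68, 7.01 and 6.94 and 16.7, 19.6 and 20.8 (relative log2 change 0.92, SE 0.20, adjusted p = 0.0059). All long-term libraries lay above all control libraries in these 3 genes. Transcription factor bHLH47 (LOC104899754), named POPEYE in Arabidopsis, where it acts under iron deficiency, rose from 5.32, 4.15 and 2.57 to 19.1, 16.05 and 16.9 (relative log2 change 1.65, SE 0.20, adjusted p = 0.00211). The primers used by the study for HMA1 are printed because this gene led the rises of the list.
LOC104894889 forward primer: gtaccgtaaactccgtcgcat
LOC104894889 reverse primer: ccttcgcaaatccaaacactt

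Several scavenging and redox enzymes fell, led by a superoxide dismutase. The Cu-Zn superoxide dismutase (LOC104902979), which removes superoxide, was at 114, 208 and 257 FPKM in control and 19.8, 13.6 and 5.01 in long-term leaves (relative log2 change -4.17, SE 0.49, adjusted p = 0.00367). The Fe superoxide dismutase (LOC104892465) was at 118, 97.6 and 98.4 and 33.7, 21.9 and 46.8 (relative log2 change -1.91, SE 0.26, adjusted p = 0.00553). The copper chaperone for superoxide dismutase (LOC104892389), which loads the first of these enzymes, was at 13.6, 18.99 and 16.3 and 7.46, 9.302 and 7.03 (relative log2 change -1.21, SE 0.16, adjusted p = 0.00633). Peroxiredoxin Q (LOC104901662), a thiol peroxidase of the thylakoid, was at 123, 119.9 and 210.5 and 65.3, 62.2 and 44.9 (relative log2 change -1.61, SE 0.24, adjusted p = 0.00667). The 25 scavenging enzymes counted 7 falls and 2 rises, of which the rises were lost after median-ratio scaling. As deposited the falls were 28% and the rises 8% of this list, against 7.23 and 31.1% of all genes. Ferredoxin-thioredoxin reductase (LOC104892793), an iron-sulfur enzyme, was at 44.3, 53.1 and 52.5 and 21.6, 24.9 and 30.1 (relative log2 change -1.21, SE 0.14, adjusted p = 0.00489). Thioredoxin M-type (LOC104905713), which it reduces, was at 988, 1077 and 1049 and 776, 645 and 638 (relative log2 change -0.86, SE 0.12, adjusted p = 0.00874), while thioredoxin M3 (LOC104904386) went up from 16.3, 15.04 and 11.1 to 29.3, 34.8 and 28.3 (relative log2 change 0.82, SE 0.16, adjusted p = 0.00473). Over 25 thioredoxins and glutaredoxins 5 fell and 3 rose, with 3 without control replicate 2 or long-term replicate 3 and 2 without control replicate 3 or long-term replicate 2 fallen. Once scaled by median ratios 12 fell and 2 rose. As deposited 20% of these genes fell and 12% rose, where 7.23% of all genes fell and 31.1% rose.

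In nitrogen assimilation 3 plastid enzymes fell. Ferredoxin-nitrite reductase (LOC104891570), with an iron-sulfur cluster and sirohaem, was at 119.8, 119 and 141 FPKM in control and 29.1, 31.7 and 42.6 in long-term leaves (relative log2 change -2.12, SE 0.15, adjusted p = 0.001). The leaf isozyme of glutamine synthetase (LOC104883503), which takes up ammonium in the chloroplast, was at 822, 897 and 1087 and 500.2, 442 and 483 (relative log2 change -1.23, SE 0.14, adjusted p = 0.00471). Ferredoxin-dependent glutamate synthase (LOC104889481), its partner, was at 269, 383 and 342 and 178, 211 and 223 (relative log2 change -0.95, SE 0.15, adjusted p = 0.0115). These were the 3 falls among 18 genes, beside 9 rises, with 3 without control replicate 2 or control replicate 3 and 2 without long-term replicate 2 risen. The nitrogen list had 6 rises and 5 falls after median-ratio scaling, and 6 members did not pass as deposited. Its rises as deposited made up 50% of the list, where 31.1% of all genes rose. NRT1/PTR family 5.2 (LOC104887893) was at 3.34, 2.21 and 1.202 and 4.3003, 6.51 and 7.02 (relative log2 change 0.87, SE 0.26, adjusted p = 0.0142), lost without long-term replicate 2 (0.0544). Glutamate dehydrogenase B (LOC104888710), which can release ammonium from glutamate, was at 21.96, 11.97 and 12.9 and 40.7, 53.5 and 22.4 (relative log2 change 0.97, SE 0.31, adjusted p = 0.0187), lost without control replicate 2 (0.0642), control replicate 3 (0.0684) or long-term replicate 2 (0.0642). The primers of nitrite reductase are given because it led the falls of this list; the label of its reverse primer carries 1 digit more than the gene identifier.
LOC104891570 forward primer: ccaaggctagggcactcaa
LOC104891570 reverse primer: ttcacaaggcttaccgttctc

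Sulfur assimilation split between its steps. Ferredoxin-dependent sulfite reductase 1 (LOC104889997), another sirohaem enzyme, was at 56.1, 52.9 and 53.9 FPKM in control and 22.6, 22.8 and 27.7 in long-term leaves (relative log2 change -1.39, SE 0.11, adjusted p = 0.00186). The 5'-adenylylsulfate reductase 1 (LOC104900978), the step before it, was at 547, 517 and 403 and 190.5, 219 and 341 (relative log2 change -1.26, SE 0.24, adjusted p = 0.0148), lost without control replicate 2 (0.0501) or long-term replicate 2 (0.0561). Upstream, ATP sulfurylase 1 (LOC104884601), from 40.2, 36.7 and 31.02 to 49.7, 55.7 and 63.3, and sulfate transporter 1.2 (LOC104884641), from 19.6, 9.33 and 5.11 to 24.4, 38.1 and 37.99, rose on the deposited scale alone (adjusted p = 0.01 and 0.0255). The call of the transporter was lost without control replicate 2 (0.0709), control replicate 3 (0.0829), long-term replicate 2 (0.0813) or long-term replicate 3 (0.0626). In all 3 of 12 genes fell and 4 rose, with 1 without long-term replicate 2 fallen and 2 without control replicate 2 or long-term replicate 3 and 1 without control replicate 3 or long-term replicate 2 risen. The rises were lost after median-ratio scaling, where 4 fell.

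**Figure D3:**
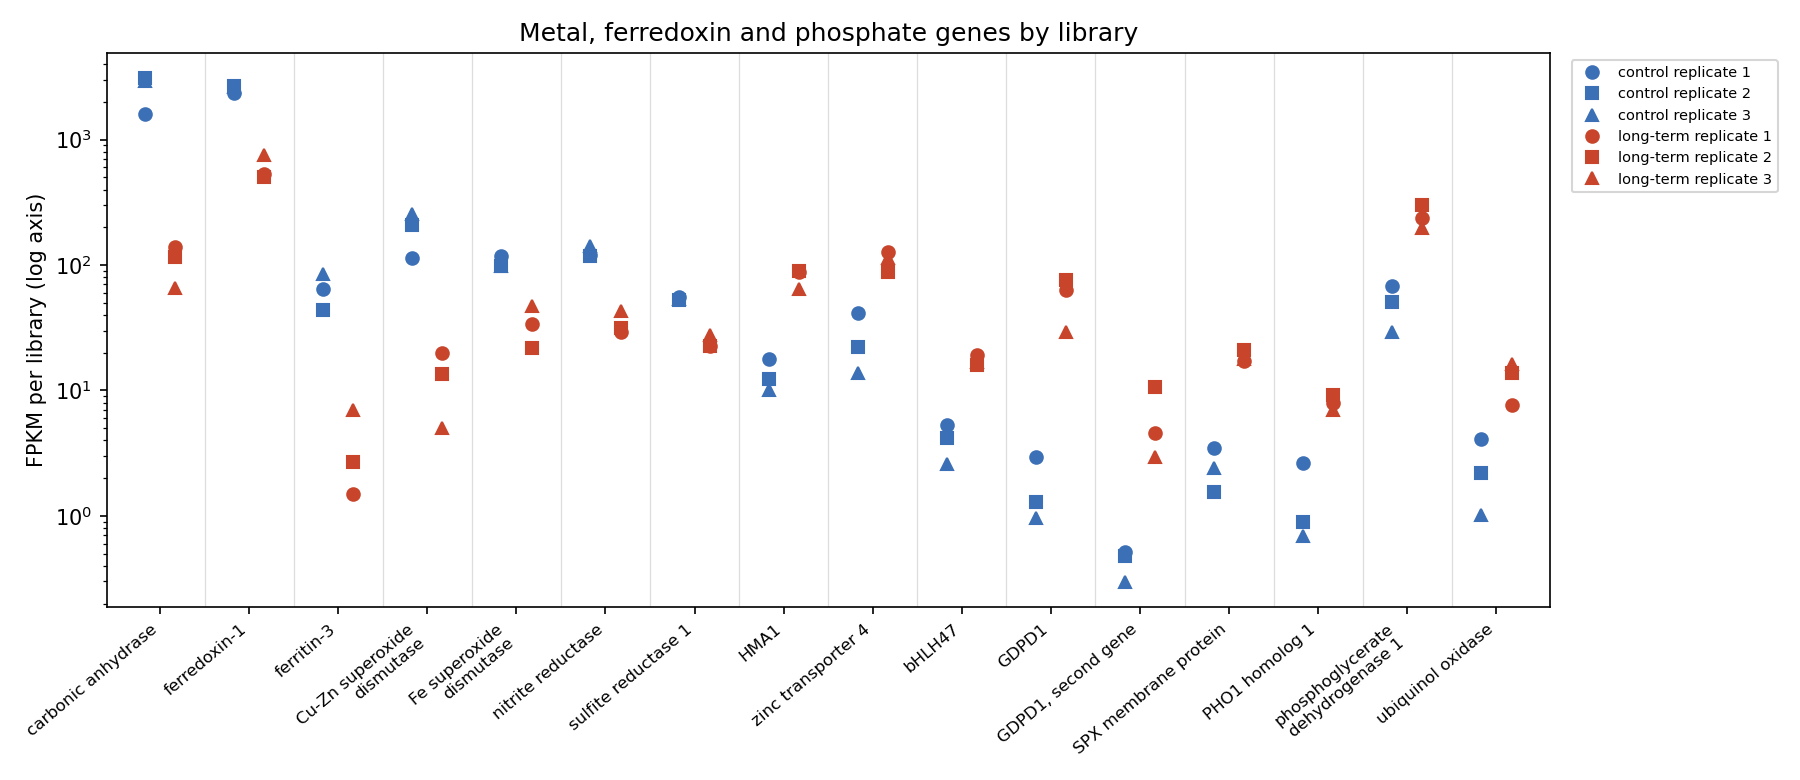
FPKM per library (log axis) of metal, ferredoxin and phosphate genes, blue for the 3 control and red for the 3 long-term libraries, with 1 symbol shape per replicate number. From carbonic anhydrase to sulfite reductase 1 the red points lie below all blue ones, with ferritin-3 at 44.1 to 85.5 against 1.49 to 6.99 FPKM, and from HMA1 to ubiquinol oxidase they lie above them.

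Genes of phosphate starvation held large rises. GDPD1, a glycerophosphodiester phosphodiesterase that acts on the glycerophosphodiesters left by broken-down phospholipids, is annotated at 2 genes that both rose. LOC104895222 was at 2.92, 1.29 and 0.965 FPKM in control and 63.1, 76.6 and 29.2 in long-term leaves (relative log2 change 4.09, SE 0.48, adjusted p = 0.00236), 32.6 times higher on the deposited scale. LOC104897502 was at 0.514, 0.482 and 0.297 and 4.61, 10.6 and 2.94 (relative log2 change 1.90, SE 0.36, adjusted p = 0.0058). At both genes the lowest long-term library stood well above the highest control library. The SPX domain-containing membrane protein LOC104905491, of a family that holds phosphate in the vacuole, was at 3.48, 1.56 and 2.41 and 17.2, 20.998 and 17.7 (relative log2 change 2.27, SE 0.20, adjusted p = 0.001). Further members were chosen for naming after their values were seen. PHO1 homolog 1 (LOC104896336), an exporter of phosphate in Arabidopsis, was at 2.66, 0.895 and 0.686 and 8.01, 9.24 and 7.03 FPKM (relative log2 change 1.73, SE 0.27, adjusted p = 0.0043). Digalactosyldiacylglycerol synthase 2 (LOC104888511), which makes a lipid that can stand in for phospholipids, was at 7.05, 6.44 and 5.74 and 12.996, 12.7 and 13.2 (relative log2 change 0.66, SE 0.10, adjusted p = 0.00216). Inorganic pyrophosphatase 2 (LOC104903667) was at 4.01, 4.06 and 2.82 and 13.6, 13.04 and 9.51 (relative log2 change 1.23, SE 0.23, adjusted p = 0.00521).

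Not all of the list went up. Of 24 genes 10 rose, 3 fell and 11 did not pass, against 6 and 3 after median-ratio scaling, with 6 without long-term replicate 2 risen. The rises as deposited were 41.7% of the list, against 31.1% over all genes. The falls were plastid members. Palmitoyl-monogalactosyldiacylglycerol delta-7 desaturase (LOC104904554) was at 24.2, 26.7 and 46.6 and 8.64, 6.88 and 4.77 FPKM (relative log2 change -2.34, SE 0.29, adjusted p = 0.0043). Inorganic phosphate transporter 2-1 (LOC104897289), of the plastid envelope in Arabidopsis, was at 45.3, 55.9 and 54.9 and 28.9, 21.8 and 29.3 (relative log2 change -1.21, SE 0.14, adjusted p = 0.00465). Monogalactosyldiacylglycerol synthase (LOC104887802), which makes the main thylakoid lipid, was at 37.03, 42.9 and 44.1 and 25.4, 22.3 and 23.2 (relative log2 change -1.04, SE 0.11, adjusted p = 0.0044). The purple acid phosphatases of the list and the root-type transporter 1-4, at or under a mean of 0.648 FPKM, showed no rise under both scalings. Mitochondrial phosphate carrier protein 3 (LOC104893898), which is outside this list, was at 11.6, 0.678 and 0.142 and 15.5, 55.9 and 53.3 (relative log2 change 3.42, SE 0.85, adjusted p = 0.0139), with control replicate 1 far above the other controls, and its call was lost without control replicate 3 (0.0504) or long-term replicate 2 (0.0549).

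Osmolyte genes moved in part. Choline monooxygenase and betaine aldehyde dehydrogenase make glycine betaine, the main compatible solute of beet. The abundant choline monooxygenase LOC104897072 was at 1131, 1088 and 847 FPKM in control and 2063, 1956 and 1666 in long-term leaves (relative log2 change 0.64, SE 0.15, adjusted p = 0.00578), and LOC104884941 of the same name at 10.6, 8.65 and 10.1 and 16.6, 18.6 and 18.04 (relative log2 change 0.54, SE 0.13, adjusted p = 0.00549). Betaine aldehyde dehydrogenase rose at LOC104894203, from 29.4, 25.04 and 21.1 to 42.6, 57.4 and 48.6 (relative log2 change 0.69, SE 0.15, adjusted p = 0.00518), while its 4 other tested genes did not pass, among them LOC104894202 at 58.4, 61.3 and 56.9 and 76.5, 81.8 and 57.98. Delta-1-pyrroline-5-carboxylate synthase, which makes proline, did not pass at either gene, with LOC104904817 at 25.4, 26.6 and 23.9 and 30.9, 37.8 and 25.8. Proline dehydrogenase 2 (LOC104905171), which breaks proline down, was at 3.17, 1.15 and 0.665 and 3.86, 5.66 and 7.14 (relative log2 change 1.12, SE 0.37, adjusted p = 0.0217), lost without control replicate 2 (0.0682), control replicate 3 (0.0777), long-term replicate 2 (0.0678) or long-term replicate 3 (0.0593). Trehalose-phosphate phosphatase C (LOC104885430) fell from 15.6, 23.3 and 22.3 to 9.36, 5.54 and 7.25 (relative log2 change -1.62, SE 0.24, adjusted p = 0.00673). The list counted 4 rises and 2 falls in 13 genes, with 1 without control replicate 2, control replicate 3, long-term replicate 1 or long-term replicate 2 fallen. The share of the list that rose, 30.8%, was near the 31.1% of all genes.

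Respiration, proteolysis and starch showed mixed or partial shifts. Ubiquinol oxidase (LOC104904018), the alternative oxidase that bypasses part of the mitochondrial chain, was at 4.11, 2.19 and 1.02 FPKM in control and 7.69, 13.7 and 16.2 in long-term leaves (relative log2 change 1.76, SE 0.42, adjusted p = 0.0109). Formate dehydrogenase 1 (LOC104907656) was at 57.5, 47.8 and 34.7 and 79.3, 99.8 and 103 (relative log2 change 0.75, SE 0.20, adjusted p = 0.00888). The beta subunit of pyruvate dehydrogenase (LOC104893881) fell from 48.1, 45.3 and 53.6 to 30.1, 30.8 and 35.2 (relative log2 change -0.86, SE 0.11, adjusted p = 0.00724). Over 50 genes of respiration and organic acids 18 rose and 4 fell, and 8 and 10 after median-ratio scaling, so the balance of the list turned with the scaling. With a library left out, 9 without control replicate 3 and 10 without long-term replicate 2 rose and 2 without control replicate 2 or control replicate 3 and 1 without long-term replicate 2 fell. Of 18 genes of proteolysis and senescence 12 rose and the other 6 did not pass, with 6 without control replicate 3 and 7 without long-term replicate 2 risen. Median-ratio scaling gave 5 rises and 1 fall. An aspartic proteinase-like gene (LOC104890627) was at 48.4, 55.8 and 32.4 and 158, 120.2 and 149 (relative log2 change 1.39, SE 0.23, adjusted p = 0.0043). Autophagy-related protein 8C (LOC104900987), which coats the autophagosome, was at 16.5, 15.8 and 11.8 and 25.1, 25.99 and 27.5 (relative log2 change 0.55, SE 0.15, adjusted p = 0.00852). Starch and sucrose genes counted 7 rises and 2 falls in 32, with 4 without control replicate 2 and 3 without control replicate 3 or long-term replicate 2 risen, and 2 and 4 after median-ratio scaling. The share risen as deposited was 36% for respiration, 66.7% for proteolysis and 21.9% for starch, against 31.1% over all genes. Isoamylase 3 (LOC104891740), which debranches starch, was at 3.27, 4.33 and 2.63 and 12.3, 12.7 and 5.73 (relative log2 change 1.04, SE 0.28, adjusted p = 0.0114). Alpha-amylase 3 (LOC104897971) was at 18.98, 21.8 and 20.9 and 13.7, 15.2 and 15.1 (relative log2 change -0.72, SE 0.10, adjusted p = 0.0128).

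The highest rises of genes with a product name were in defence proteins, at genes where control replicate 1 lay close to the long-term range. LOC104905663, cut by the files to the name glucan endo-1, as beta-glucanases of the cell wall begin, was at 178, 1.56 and 1.17 FPKM in control and 182, 586 and 818 in long-term leaves (relative log2 change 5.22, SE 1.51, adjusted p = 0.0244). LOC104890036, of the same name, was at 194, 13.95 and 3.08 and 253, 702 and 1466 (relative log2 change 4.55, SE 1.25, adjusted p = 0.0202). Control replicate 1 and long-term replicate 1 were nearly level at the first of these genes, and the calls of both were lost without control replicate 2 or 3 or long-term replicate 2 or 3, at adjusted p between 0.0554 and 0.0868. Defensin-like protein AX1 (LOC104891640), a small antifungal peptide of beet leaves, was at 6.597, 0.943 and 0.423 and 12.5, 32.95 and 63.1 (relative log2 change 3.22, SE 0.73, adjusted p = 0.011). Of 80 defence genes 27 rose and 4 fell, against 16 and 7 after median-ratio scaling, with 10 without control replicate 2 and 6 without control replicate 3 or long-term replicate 2 risen and 1 without control replicate 3 and 2 without long-term replicate 2 fallen. The share that rose, 33.8%, was near that of all genes (31.1%). In 5 of the 27 control replicate 1 lay within the long-term range, and in 24 it was the nearest control library. LOC104885043, another gene named glucan endo-1, fell from 43.2, 52.3 and 63.6 to 35.2, 25.4 and 17.5 (relative log2 change -1.30, SE 0.24, adjusted p = 0.0146), lost without control replicate 3 (0.0563).

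Jasmonate genes rose at their lipoxygenases. Linoleate 13S-lipoxygenase 2-1, which opens the route from plastid lipids to jasmonate, was at 13.2, 14.2 and 1.33 FPKM in control and 317, 280.1 and 51.4 in long-term leaves at LOC104889933 (relative log2 change 4.14, SE 0.85, adjusted p = 0.00868), where control replicate 1 did not stand apart. Its neighbour LOC104889932, of the same name, was at 180.3, 28.9 and 14.3 and 169, 325 and 379, with control replicate 1 inside the long-term range and a call on the deposited scale alone (adjusted p = 0.0304), which was lost without control replicate 2 (0.0912), control replicate 3 (0.095), long-term replicate 2 (0.0898) or long-term replicate 3 (0.0756). Reads of near-identical neighbours can be split either way, so the share of each is uncertain. Lipoxygenase 6 (LOC104897618) was at 38.9, 41.98 and 33.7 and 62.7, 96.02 and 68.05 (relative log2 change 0.69, SE 0.16, adjusted p = 0.00645). A jasmonate-induced protein homolog (LOC104888423) was at 1.92, 0.191 and 0.197 and 9.67, 9.21 and 8.11 (relative log2 change 2.37, SE 0.59, adjusted p = 0.0127). The next enzymes did not pass, with allene oxide synthase 1 (LOC104906974) at 9.15, 3.57 and 2.15 and 10.3, 9.49 and 9.55 and allene oxide cyclase (LOC104905703) at 16.3, 13.2 and 11.3 and 14.8, 14.9 and 12.9. The list counted 7 rises in 12 and 3 after median-ratio scaling, with 3 without control replicate 2, control replicate 3 or long-term replicate 2 and 4 without long-term replicate 3 risen. As deposited 58.3% of the list rose, against 31.1% of all genes.

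Several receptor and calcium genes also had control replicate 1 above the other controls. Wall-associated receptor kinase-like 4 (LOC104902330) was at 4.35, 0 and 0 FPKM in control and 5.43, 16.96 and 21.7 in long-term leaves (relative log2 change 2.72, SE 0.72, adjusted p = 0.0161), lost without control replicate 2 (0.0554), control replicate 3 (0.0615) or long-term replicate 2 (0.0592). Of 97 receptor-like kinases 33 rose and 6 fell, against 15 and 10 after median-ratio scaling, with 12 without control replicate 2, 9 without control replicate 3, 7 without long-term replicate 2 and 20 without long-term replicate 3 risen and 2 without control replicate 2, control replicate 3 or long-term replicate 2 and 3 without long-term replicate 3 fallen, and in 9 of the risen ones control replicate 1 lay within the long-term range. The risen and fallen shares of the list as deposited, 34.02 and 6.19%, were near the 31.1 and 7.23% of all genes. The probable inactive leucine-rich repeat receptor-like kinase LOC104884752 fell from 8.51, 7.96 and 9.13 to 4.13, 2.35 and 3.65 (relative log2 change -1.40, SE 0.15, adjusted p = 0.0043). Calcium-transporting ATPase 10 (LOC104901544), which pumps calcium out of the cytosol, was at 14.3, 7.59 and 6.97 and 17.8, 32.3 and 43.8 (relative log2 change 1.32, SE 0.34, adjusted p = 0.012). The putative calcium-transporting ATPase 13 (LOC104890906) was at 0.722, 0.0429 and 0.0208 and 1.33, 10.1 and 15.8 (relative log2 change 2.37, SE 0.65, adjusted p = 0.0171), lost without control replicate 2 (0.0543), control replicate 3 (0.0606) or long-term replicate 2 (0.0642). Calmodulin-binding transcription activator 2 (LOC104904019) was at 19.2, 14.4 and 12.998 and 28.2, 38.2 and 34.8 (relative log2 change 0.82, SE 0.16, adjusted p = 0.00485). Calcium genes counted 14 rises and 1 fall in 28, with 7 without control replicate 2 and 5 without control replicate 3 or long-term replicate 2 risen. After median-ratio scaling 6 rose and 3 fell, and as deposited the rises were 50% of the list, where over all genes 31.1% rose. Calcineurin B-like protein 10 (LOC104884222), which in Arabidopsis acts with SOS2 in sodium tolerance of the shoot, was the single fall, from 6.52, 9.26 and 8.98 to 5.86, 5.56 and 4.25 (relative log2 change -0.83, SE 0.15, adjusted p = 0.0231), lost without control replicate 2 (0.0767), control replicate 3 (0.0825), long-term replicate 2 (0.0556) or long-term replicate 3 (0.0581). The proton pump and cation exchange list held 10 rises and 1 fall in 32, with 3 without control replicate 2 and 2 without control replicate 3 or long-term replicate 2 risen, where the fall was K(+) efflux antiporter 3 (LOC104904796), at 17.5, 25.04 and 23.4 and 13.97, 13.7 and 13.3 (relative log2 change -0.89, SE 0.13, adjusted p = 0.0105). The rises were 31.25% of this list, against 31.1% over all genes, and 4 of them were called after median-ratio scaling.

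**Figure D4:**
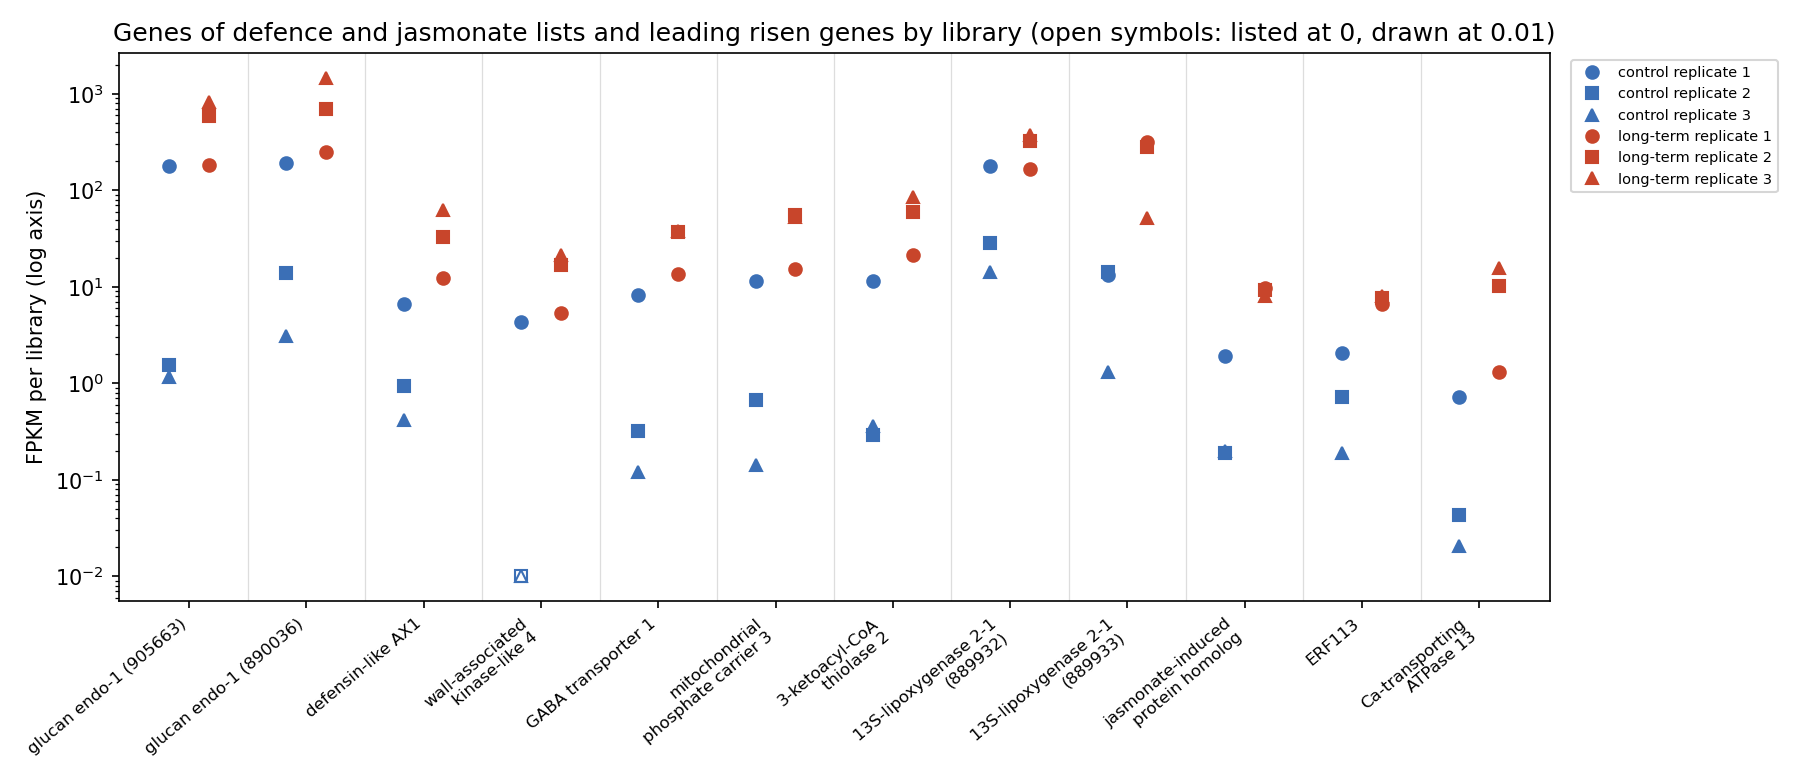
FPKM per library (log axis) of risen genes of the defence, jasmonate and signalling lists and of other leading risen genes, blue for the 3 control and red for the 3 long-term libraries, with 1 symbol shape per replicate number. LOC104889932 rose on the deposited scale alone. Control replicate 1 (blue circles) lies far above control replicates 2 and 3 in most of them, at 178 against 1.56 and 1.17 FPKM for LOC104905663, while LOC104889933 shows no such gap, at 13.2, 14.2 and 1.33.

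Other genes with large changes belonged to no group above. A 3-ketoacyl-CoA thiolase 2 (LOC104899444), of fatty acid beta-oxidation, was at 11.6, 0.293 and 0.364 FPKM in control and 21.4, 59.9 and 84.7 in long-term leaves (relative log2 change 3.86, SE 0.89, adjusted p = 0.0119). GABA transporter 1 (LOC104903619) was at 8.28, 0.3196 and 0.122 and 13.6, 37.2 and 38.4 (relative log2 change 3.29, SE 0.82, adjusted p = 0.0141), lost without control replicate 3 (0.054) or long-term replicate 2 (0.0544). Both showed control replicate 1 apart from the other controls. Probable plastid-lipid-associated protein 14 (LOC104888260) did not, at 4.75, 3.07 and 3.26 and 84.9, 70.5 and 30.1 (relative log2 change 3.37, SE 0.39, adjusted p = 0.00211). The extensin-like gene LOC104895470, a wall protein by its name, was at 0.116, 0.133 and 0.247 and 8.99, 14.1 and 5.59 (relative log2 change 2.84, SE 0.30, adjusted p = 0.00186), also with level controls. Transcription factor bHLH67 (LOC104902402), a regulator by its name, fell from 5.13, 6.33 and 5.84 to 1.702, 1.198 and 0.464 (relative log2 change -1.97, SE 0.20, adjusted p = 0.00318), and ERF113 (LOC104897454) rose from 2.08, 0.721 and 0.191 to 6.59, 7.65 and 8.04 (relative log2 change 1.92, SE 0.33, adjusted p = 0.00499).

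Chaperones held both rises and falls, and the heat stress and WRKY factors a few rises. Of 54 chaperones 13 rose and 7 fell, against 4 and 9 after median-ratio scaling, with 7 without control replicate 2, 5 without control replicate 3 and 6 without long-term replicate 2 risen and 4 without long-term replicate 2 fallen. The risen share of the chaperones as deposited, 24.1%, was below the 31.1% of all genes. ClpB1 (LOC104907875), a disaggregase, was at 1.08, 0.909 and 0.688 and 6.39, 4.802 and 3.82 FPKM (relative log2 change 1.39, SE 0.16, adjusted p = 0.00186). The 5 tested heat stress factors held 3 rises, of which HSF30 (LOC104886614), at 0.7004, 0.613 and 0.188 and 3.21, 2.28 and 1.603 (relative log2 change 0.89, SE 0.21, adjusted p = 0.00716), also passed after median-ratio scaling. WRKY factors, regulators of defence, counted 3 rises in 8 (37.5%, against 31.1% of all genes). The highest, WRKY 50 (LOC104886592), was at 29.02, 2.33 and 0.788 and 26.7, 54.8 and 132 (relative log2 change 3.13, SE 0.96, adjusted p = 0.0268), so that control replicate 1 overlapped the long-term range. The calls of this list were lost without control replicate 2, control replicate 3 or long-term replicate 2. Of 26 photoreceptor and clock genes 5 rose (3 without control replicate 3 and 2 without long-term replicate 2) and 1 fell. The balance turned after median-ratio scaling, to 2 rises and 3 falls. As deposited 19.2% of this list rose and 3.85% fell, against 31.1 and 7.23% of all genes. The fall as deposited was LHY (LOC104901408), a morning gene of the clock, at 184, 231 and 181 and 148, 95.04 and 149 (relative log2 change -0.88, SE 0.19, adjusted p = 0.0315), lost without control replicate 2 (0.103), control replicate 3 (0.0657) or long-term replicate 2 (0.0751). The hour of harvest is not given for either group.

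Counts of several other lists depended on the scaling. Ubiquitin ligases went from 60 rises and 5 falls in 148 to 17 and 8. Splicing and chromatin genes went from 22 rises in 75 to 4 rises and 1 fall, and MAP and other cytosolic kinases from 26 and 2 in 69 to 7 and 6. Their medians relative to all genes, 0.11, 0.02 and 0.09, were near 0. Pentatricopeptide repeat proteins, which edit and process organelle RNA, turned from 14 rises and 10 falls in 238 to 3 and 26. Ethylene signalling had 5 rises in 7 as deposited, among them EIN2 (LOC104884677) at 12.1, 12.6 and 11.3 and 15.8, 17.6 and 17.1 FPKM, and these calls were lost after median-ratio scaling. Each count also moved with a library left out. Rises of ubiquitin ligases came to 39 without control replicate 2, 26 without control replicate 3 and 27 without long-term replicate 2, and their falls to 3 without control replicate 2 and 2 without control replicate 3. Rises of splicing genes came to 9 without control replicate 2 and 7 without control replicate 3 or long-term replicate 2. Those of kinases came to 12 without control replicate 2, 9 without control replicate 3 and 11 without long-term replicate 2, and those of ethylene genes to 2 without control replicate 2 and 1 without control replicate 3 or long-term replicate 2. Pentatricopeptide proteins held 7 without control replicate 2 or long-term replicate 2 and 6 without control replicate 3 risen, and 20 without control replicate 1, 4 without control replicate 3, 17 without long-term replicate 1 and 6 without long-term replicate 2 fallen. A direction for these lists is therefore not given.

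Among non-coding transcripts, 69 (3.61%) of the 1914 tested lncRNAs rose and 75 (3.92%) fell, and 54 (2.82%) and 142 (7.42%) after median-ratio scaling. Intergenic lncRNAs gave 59 of the rises and 66 of the falls out of 1632 tested, and antisense lncRNAs 10 and 9 out of 282. The calls dropped to 27 and 33 without control replicate 2, to 25 and 27 without control replicate 3 and, for the falls, to 32 without long-term replicate 2. Relative log2 changes of lncRNAs are also the log2 change minus the 0.26 of genes, while the median log2 change of the lncRNAs themselves was 0.107. LNC_004748, a lincRNA of 577 bases, was listed at 0 in all 3 control libraries and at 71.4, 61.6 and 54.6 FPKM in the long-term ones (adjusted p = 0.00141). LNC_004747, on the same strand of NC_025819.2 and upstream of it (34505877 to 34506947, against 34511304 to 34511880), went from 0.258, 0 and 0 to 17.97, 14.3 and 9.12 FPKM (relative log2 change 3.47, SE 0.45, adjusted p = 0.00267). The nearest gene to both, LOC104902118, which has no product name, begins 5099 bases beyond LNC_004748 and did not pass. LNC_001305 was at 8.01, 0.551 and 0.0644 and 8.25, 34.8 and 49.6 (relative log2 change 3.12, SE 0.84, adjusted p = 0.0405), with control replicate 1 almost level with long-term replicate 1, and its call was lost without control replicate 2 (0.142), control replicate 3 (0.146), long-term replicate 2 (0.126) or long-term replicate 3 (0.123). LNC_008366, for which the study designed primers, rose from 0.229, 0 and 0 to 19.3, 22.7 and 29.8 (relative log2 change 4.26, SE 0.34, adjusted p = 0.000217).
LNC_008366 forward primer: tcacagttgtagagttgaatctcgt
LNC_008366 reverse primer: agttgaacagaacgcaccct

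Levels of the fallen lncRNAs differed widely. LNC_008194, the most abundant of those named, was at 2609.99, 3119.8 and 3816 FPKM in control and 1151, 893 and 1201 in long-term leaves (relative log2 change -1.81, SE 0.16, adjusted p = 0.00141), on the unplaced sequence NW_017589904.1 (109 to 492), with no gene on it. LNC_005332 (NC_025820.2, 35511582 to 35524341, plus strand) was at 94.6, 70.2 and 107 and 26.9, 25.6 and 32.4 (relative log2 change -1.89, SE 0.21, adjusted p = 0.0031). LNC_004841, antisense to LOC104900874 and overlapping it, was at 2.46, 4.78 and 3.41 and listed at 0 in every long-term library (adjusted p = 0.00941), while the gene itself was too low to test, at means of 0.207 and 0.156 FPKM.

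Transcripts of uncertain coding potential (TUCPs) carried between 38.7 and 53.9% of the FPKM of these libraries, and 42 (5.13%) of 819 rose and 71 (8.67%) fell, against 32 (3.91%) and 150 (18.3%) after median-ratio scaling. Rises came to 13, 8, 13 and 23 without control replicate 2, control replicate 3, long-term replicate 2 and long-term replicate 3, and falls to 32, 27, 33 and 37. The 0.26 of genes was taken from their log2 changes too, while the median of the TUCPs themselves was 0.0216. A cluster of 6 overlapping TUCPs on NW_017588110.1 (187 to 561) summed to 179881, 183172 and 169279 FPKM in control and 150589, 27234 and 137130 in long-term leaves. Long-term replicate 2 was thus far below the other libraries there. FPKM is a share of a library, and the part of this locus in the other values of that library was not tested. TUCP_000112 (NC_025813.2, 37841675 to 37842013, plus strand) was at 2039, 2835 and 3593 and 1028, 828 and 931 (relative log2 change -1.83, SE 0.22, adjusted p = 0.00744), and TUCP_000987 at 892, 1421 and 1683 and 386, 402 and 439 (relative log2 change -1.91, SE 0.25, adjusted p = 0.00804). TUCP_000555 rose from 0.0647, 0.0916 and 0.0197 to 8.33, 20.3 and 2.76 (relative log2 change 2.84, SE 0.54, adjusted p = 0.011), lost without control replicate 3 (0.0513). TUCP_000314 was at 13.99, 0.126 and 0.213 and 23.6, 75.97 and 109 (relative log2 change 4.18, SE 1.03, adjusted p = 0.0312), with control replicate 1 far above the other controls, and its call was lost without control replicate 2 (0.0984), control replicate 3 (0.107), long-term replicate 2 (0.11) or long-term replicate 3 (0.0848).

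**Figure D5:**
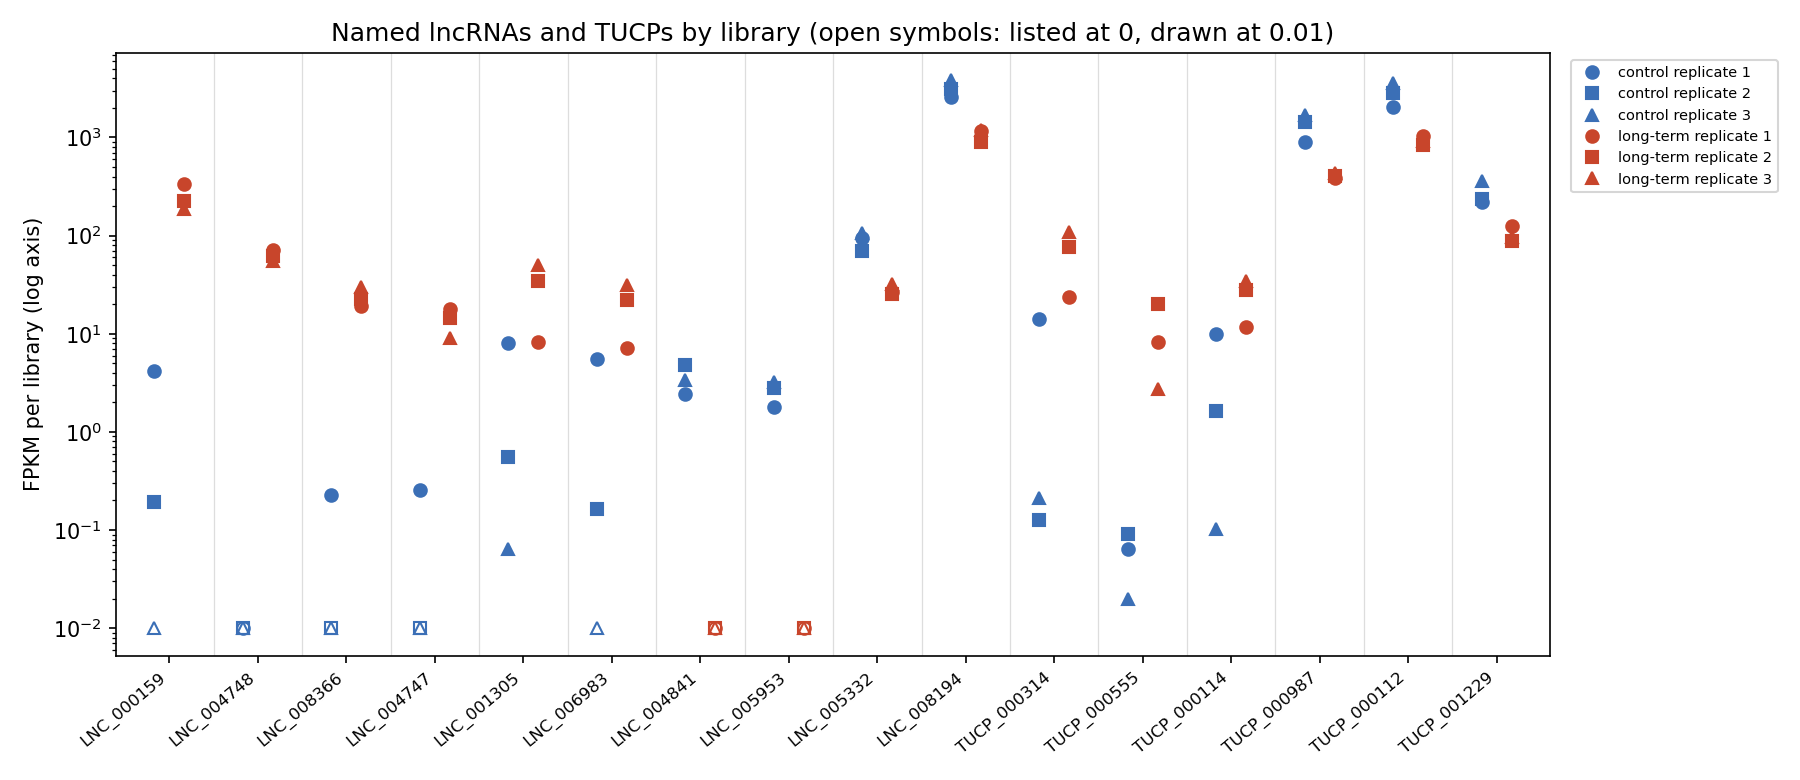
FPKM per library (log axis) of named lncRNAs and TUCPs, blue for the 3 control and red for the 3 long-term libraries, with 1 symbol shape per replicate number and open symbols for transcripts listed at 0, drawn at 0.01. LNC_004748 is listed at 0 in every control library and lies between 54.6 and 71.4 in the long-term ones, LNC_004841 is listed at 0 in every long-term library, and LNC_008194 and the TUCPs at the right fall from levels over 200 FPKM.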

How the data were processed

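Leaf RNA of 9 sugar beet libraries, freed of ribosomal RNA and made with strand kept, was processed by the authors, whose notes name StringTie 1.3.1, into the deposited FPKM of 43133 transcripts, with transcript positions beside them. The methods of the study name Cuffdiff for the FPKM, so which program made these values is uncertain. The authors give no read counts in these values, so depth and counting error are unknown, and no build of the genome is named in these sources. Antisense transcripts rest on the strand of the library. Protein-coding FPKM was summed per gene identifier, lncRNAs and TUCPs stayed single transcripts, and repeated transcript identifiers (572) were all added.

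Features with a mean over 0.5 FPKM in any of the 3 groups, day 3 included, were tested. They were fitted as log2(FPKM + 1), which understates changes of low genes, with limma 3.58.1 in R 4.3.3 (variance trend, 3 group means over 9 libraries). P-values were adjusted by Benjamini-Hochberg at 0.05 within genes, lncRNAs and TUCPs, and they measure the spread between the sampled replicates. Python 3.11.15, pandas 2.3.3 and numpy 2.4.6 did the rest. The fit and the median-ratio scaling were tested on simulated data with even noise and few changed genes, balanced in direction. That setting cannot show how they behave under a broad shift toward rises.

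Product names, which the files end at the first comma, placed 1727 tested genes in 54 lists. Of the tested genes 5526 have a product name, uncharacterized ones included. Lists were matched by name alone, so some hold stray members, and one of transporters that matched too widely is not described. Genes were named by rule: up to 3 risen and 3 fallen members of each list and the 15 highest and lowest of all genes with an informative product name by log2 change, among those passing as deposited and after median-ratio scaling with no overlap and 1 FPKM in a group, the 6 highest and lowest lncRNAs, the 3 highest and lowest TUCPs, genes that the study names for this treatment, and every member of lists of at most 12 or of short pathways. A sample of these is printed. Members and lists were chosen with earlier results of these data known. Alternatives covered scaling, pseudocount, filter, trend, weights, samples, a replicate block and each library left out.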

Additional observations from a re-analysis of the deposited data

How the results depend on the processing

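The counts of calls depended on the scaling, on the libraries in the fit and on moderation of the variance. After median-ratio scaling 1444 genes rose and 1873 fell, with 142 fallen lncRNAs and 150 fallen TUCPs. Fitted on the control and long-term libraries alone, 2573 genes rose, 34 lncRNAs rose and 37 fell, and 15 TUCPs rose and 35 fell. With the same total FPKM per library 47 lncRNAs and 35 TUCPs fell. With no filter 144 lncRNAs rose, and 25 TUCPs rose and 46 fell. An unmoderated F-test, also on the control and long-term libraries alone, gave 0 risen and 0 fallen genes (4345 and 1096 at an unadjusted p under 0.05). It gave 4 risen and 1 fallen lncRNAs, and 0 and 0 TUCPs (80 and 115 unadjusted). At an unadjusted p limma gave 5244 and 1239 genes on the same libraries and 5895 and 1419 in the main fit. With a replicate block 2540 genes rose and 24 named features (of 221) lost the call, 49 lncRNAs fell, and 10 TUCPs rose and 30 fell. Same-numbered control and long-term libraries deviated in opposite directions (correlations -0.61, -0.13 and -0.41), and differently numbered ones correlated between -0.36 and 0.52. Deviations within a group of 3 libraries are tied to each other, so these values cannot tell whether libraries of the same number were paired.

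Leaving out 1 library gave between 1758 and 4643 risen and between 564 and 1158 fallen genes, between 25 and 98 risen and between 27 and 87 fallen lncRNAs, and between 8 and 56 risen and between 27 and 75 fallen TUCPs. Of 221 features named by size of change or by the study 218 passed. Those named by size of change had been chosen for passing, so the count does not test them. Only features named by the study alone could fail. LOC104888232 was one that did not pass (relative log2 change -0.56, SE 0.35, adjusted p = 0.512). Of the 221 features 58 lost the call without at least 1 library, 49 of them without control replicate 3 and 49 without long-term replicate 2. Exportin 1A (LOC104888024), which passed as deposited, stood at a log2 change of -0.014 after median-ratio scaling. No other of the 221 changed direction there, where most had been chosen for passing under both scalings. Averaging repeated transcripts, an alternative chosen after seeing the data, ended no call of the 197 genes among these. Low values carry the least weight, since depth is unknown and the scale compresses them. Causes of these differences were not tested.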

Other observations

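At some places a fallen non-coding transcript lay near genes that rose, which was noticed after the values were seen. TUCP_000112 fell, and on either side of it on NC_025813.2 lie LOC104887627, 7467 bases away on the minus strand, and LOC104887628, 7105 bases away on the plus strand, neither with a product name. LOC104887627 went from a mean of 20.7 FPKM in control to 233 in long-term leaves (relative log2 change 3.33, SE 0.46, adjusted p = 0.00404), and LOC104887628 from 26.5 to 157 (relative log2 change 2.69, SE 0.68, adjusted p = 0.0139). Both passed after median-ratio scaling, and the call of LOC104887628 was lost without control replicate 3 (0.0502). LNC_005953 fell as well, and carboxypeptidase A6 (LOC104905661), 8086 bases from it, went from a mean of 3.28 to 7.13 FPKM (relative log2 change 0.66, SE 0.18, adjusted p = 0.00885). The call of LNC_005953 was lost without control replicate 2 (0.0745), control replicate 3 (0.0905), long-term replicate 2 (0.0639) or long-term replicate 3 (0.053). A second gene at 8303 bases from it, LOC104905660, did not pass (adjusted p = 0.552). Nor did the nearest genes to the fallen LNC_005332, LNC_001803 and TUCP_000987, while the gene nearest to LNC_004675 rose on the deposited scale alone. The second nearest gene to LNC_001803, LOC104891566 at 19666 bases, passed as a rise under both scalings (adjusted p = 0.0162 and 0.047). It was low, at means of 0.346 and 1.08 FPKM, and its call was lost without long-term replicate 2 (0.0553). Over all genes 31.1% rose, and a link between these neighbours was not tested.

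TUCP_000555, which rose, lies 16789 bases from tyrosine decarboxylase 1 (LOC104899307), an enzyme that makes tyramine, and this gene went from a mean of 24.1 to 81.1 FPKM (relative log2 change 1.62, SE 0.42, adjusted p = 0.0123). The call of the TUCP itself was lost without control replicate 3 (0.0513). Among the other highest risen transcripts, the gene nearest to LNC_000159 rose under both scalings and that nearest to LNC_006983 on the deposited scale alone. The nearest genes to TUCP_000114, LNC_004747 and LNC_004748 did not pass, and those to TUCP_000314 and LNC_001305 were too low to test. LNC_008366 had no gene on its sequence. Over all genes 31.1% rose, and a link between such neighbours was not tested.

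Of the 2358 genes that passed under both scalings with no overlap of the groups and at least 1 FPKM in a group, 804 had a product name other than uncharacterized.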
